A study of Mus musculus with 4 samples.

Results

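Complex II, or succinate dehydrogenase, was followed through its 4 subunits (Sdha, Sdhb, Sdhc and Sdhd) and its 4 assembly factors (Sdhaf1, Sdhaf2, Sdhaf3 and Sdhaf4) in a ribosome footprinting table of mouse leukaemia. The members were taken by gene symbol, and all 8 were among the 16442 genes of the table. By its title, the study deals with acute myeloid leukaemia and how translation of respiratory chain proteins bears on succinate. It holds 4 libraries, 2 labelled KO and 2 labelled WT, each with ribosome footprints (the mRNA stretches that ribosomes shield from nuclease) and an input RNA kept from the same lysate. All 4 came from leukaemic bone marrow of C57BL/6 animals and are called leukaemia stem cells by their titles. The KO group is labelled as a knockout of Rreb1, a zinc finger transcription factor. The genotype field of KO replicate 1 reads Rreb1-KO and that of KO replicate 2 reads Rreb2-KO, so KO replicate 2 was grouped by its title. How the leukaemia was started, which surface markers defined the cells, which part of Rreb1 was removed, in which cells, and the age and number of the animals are not given in the sources used here.

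Complex II oxidises succinate to fumarate in the tricarboxylic acid (TCA) cycle and hands the electrons to ubiquinone in the inner mitochondrial membrane. SDHA holds the succinate site and a covalently bound FAD, SDHB carries iron-sulfur clusters that relay the electrons, and SDHC and SDHD anchor the enzyme in the membrane and form the haem and ubiquinone sites. Every subunit is encoded in the nucleus and translated in the cytosol, whereas complexes I, III and IV each also hold subunits encoded in mitochondrial DNA. In yeast and human cells SDHAF2 is needed to attach FAD to SDHA, SDHAF4 binds flavinylated SDHA on its way to SDHB, and SDHAF1 and SDHAF3 act in the iron-sulfur maturation of SDHB.

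In the KO-labelled libraries the footprints of the anchors Sdhc and Sdhd lay at 0.41 and 0.34 of the WT level, those of Sdha and Sdhb overlapped WT, and RNA of Sdha fell while RNA of Sdhb rose. No member passed the adjusted threshold in footprints. Of all tested genes, 32.1% had lower footprints in both KO-labelled libraries than in both WT libraries. The RNA test called 60.8% of all tested genes, 33.1% higher and 27.7% lower. The footprint ratio of the anchors to the catalytic subunits was close to 0.74 in both KO-labelled libraries and above 2.1 in both WT libraries. For Sdhd, RNA and translational efficiency carry a limit of the deposited values that is described below.

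Rreb1 itself was looked at first. Its footprints were 12.9 and 8.19 RPKM (reads per kilobase of coding sequence and per 1000000 assigned reads) in KO replicates 1 and 2, against 14.1 and 12.8 RPKM in WT replicates 1 and 2. RNA values in RPKM were scaled by another length, which for the complex II subunits was longer than the coding sequence. RNA of Rreb1 was 6.10 and 6.93 RPKM in the KO-labelled libraries, against 3.33 and 3.25 RPKM in the WT libraries, and it rose by a log2 difference of 0.81 ± 0.09 (SE of 2 against 2 libraries, adjusted p = 0.000283 by limma). The values span the whole gene, so they do not show whether the removed part is missing. The libraries are therefore called KO-labelled, and every direction below rests on the labels.

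The libraries differed in depth and in the marker genes of other cells. Assigned footprint reads were 364087 and 274183 in the KO-labelled libraries, against 878068 and 656249 in the WT libraries, while input reads lay within 1.12-fold of each other. Across the 6389 genes tested, which are not independent replicates, the correlation of footprints was 0.782 within the KO-labelled pair and 0.940 within the WT pair (Pearson r). Summed RNA of 9 progenitor and leukaemia stem cell markers was 417 to 425 RPKM in the KO-labelled libraries and 353 to 354 RPKM in the WT libraries, with 6 of the 9 higher and 2 (Cd33 and Meis1) lower in both KO-labelled libraries. Cd47 gave 190.0 and 197 RPKM of it in the KO-labelled libraries, against 183 and 181 RPKM in the WT libraries, while Cd34 had 50.5 and 49.8 RPKM against 4.41 and 4.71 RPKM, and Flt3 19.5 and 17.7 RPKM against 2.54 and 2.99 RPKM. Summed RNA of 9 myeloid markers was 9185 to 10282 RPKM against 16245 to 16416 RPKM, with 6 of the 9 lower and 2 (Prtn3 and Cebpa) higher in both KO-labelled libraries. Mast cell, basophil and eosinophil markers (6 of 7 listed were in the table) summed to 482 to 499 RPKM against 32.8 to 34.5 RPKM, with 5 of the 6 higher in both KO-labelled libraries. The 6 T and NK markers summed to 362 to 433 RPKM against 16.6 to 16.8 RPKM, of which Nkg7 alone gave 356 to 426 RPKM in the KO-labelled libraries, while Cd3d, Cd3e and Cd3g stayed under 1 RPKM in all 4. The 6 erythroid markers summed to 334 to 411 RPKM against 62.0 to 70.5 RPKM. Megakaryocyte markers summed to 20.8 to 22.2 RPKM against 1.15 to 1.64 RPKM, nearly all of it Itga2b, stromal and endothelial markers to 73.0 to 80.3 RPKM against 12.01 to 12.27 RPKM with 4 of 4 higher, and B cell markers to 26.4 to 28.3 RPKM against 40.5 to 43.0 RPKM. The part of these cells in the complex II values was not tested, and in such bulk samples fewer cells of a type and less RNA per cell cannot be told apart.

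Promoter stretches are shown for the 3 members whose RNA passed the test described below, Sdha, Sdhb and Sdhaf1. Each runs from 80 bases before to 20 after the annotated start, 5′ to 3′ on the gene's strand, from RefSeq on GRCm38.p6. Capitals mark 2 motifs of factors known to drive respiratory genes, searched on both strands: CCGGAA, the core bound by ETS factors such as GABP, and the motif of NRF1, which reads GCGCA, any base, then GCGC. No 2 marked matches overlap each other.
Sdha (chr13:74350221-74350320, minus strand): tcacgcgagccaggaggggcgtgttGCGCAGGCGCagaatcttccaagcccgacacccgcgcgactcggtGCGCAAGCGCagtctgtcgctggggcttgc
Sdhb (chr4:140961191-140961290, plus strand): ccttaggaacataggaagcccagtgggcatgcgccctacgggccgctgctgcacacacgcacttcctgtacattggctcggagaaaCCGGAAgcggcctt
Sdhaf1 (chr7:30322356-30322455, minus strand): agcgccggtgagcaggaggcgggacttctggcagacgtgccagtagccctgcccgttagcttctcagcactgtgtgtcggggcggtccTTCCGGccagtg
The stretch of Sdha, whose RNA fell, holds 2 NRF1 matches and 0 ETS cores. Those of Sdhb and Sdhaf1, whose RNA rose, hold 1 ETS core and 0 NRF1 matches each. RNA of the other members did not pass. In the same stretch, Sdhd holds 1 of each motif, Sdhaf3 and Sdhaf4 hold 1 NRF1 match each, and Sdhaf2 holds neither motif. A link between motif and RNA direction was not tested. Among all 32851 RefSeq promoters the same stretch holds an ETS core in 8.18% and an NRF1 match in 2.81%. In the whole window of 300 bases, Sdhd and Sdhaf3 hold 2 ETS cores and 1 NRF1 match each, Sdhaf2 holds 2 ETS cores, and Sdhaf4 holds 1 NRF1 match, while Sdha holds 3 NRF1 matches there. Among all RefSeq promoters the whole window holds an ETS core in 14.9% and an NRF1 match in 4.60%. A match is only a run of letters, and binding was not measured here.

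Sdha, the flavoprotein that binds succinate, had footprints of 120.0 RPKM in KO replicate 1 and 203 RPKM in KO replicate 2, from 87 and 111 reads, against 199.5 and 217 RPKM in the WT libraries, from 349 and 284 reads. KO replicate 1 was the low library, and KO replicate 2 lay between the WT libraries. The log2 difference was -0.41 ± 0.35 (SE of 2 against 2 libraries, adjusted p = 0.579 by limma), with a 95% interval from -1.34 to 0.51. Its RNA was 64.2 and 58.4 RPKM in the KO-labelled libraries, against 82.4 and 86.2 RPKM in the WT libraries, so the groups did not overlap. RNA fell by 0.46 on the log2 scale (SE 0.07 from 2 against 2 libraries, adjusted p = 0.00140 by limma). Translational efficiency (TE, the deposited ratio of the footprint value to the RNA value) was 1.85 and 3.44 in the KO-labelled libraries, against 2.40 and 2.50 in the WT libraries. The KO-labelled values lay on either side of WT, and the log2 TE difference was 0.04 ± 0.42 (SE; adjusted p = 0.973 by limma).

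Sdhb, the iron-sulfur subunit, had footprints of 221 and 366 RPKM in the KO-labelled libraries, from 68 and 85 reads, against 171 and 227 RPKM in the WT libraries, from 127 and 126 reads. KO replicate 1 lay just below WT replicate 2, so the groups overlapped. The log2 difference was 0.53 ± 0.37 (SE of 2 against 2 libraries, adjusted p = 0.505 by limma), with a 95% interval from -0.43 to 1.49. RNA was 138 and 112 RPKM in the KO-labelled libraries, against 90.6 and 93.5 RPKM in the WT libraries. It rose by a log2 difference of 0.43 ± 0.10 (SE of 2 against 2 libraries, adjusted p = 0.00746 by limma). Without WT replicate 1 the RNA difference was 0.41 with a limma adjusted p of 0.0506, and over 14 alternatives this p ranged from 4.88e-06 to 0.0506. TE was 1.60 and 3.24 in the KO-labelled libraries, against 1.88 and 2.41 in the WT libraries, and the groups overlapped (log2 difference 0.10 ± 0.46, SE, adjusted p = 0.939 by limma).

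The catalytic pair thus differed between the groups in its RNA balance. The ratio of Sdha to Sdhb RNA was 0.467 and 0.519 in the KO-labelled libraries, against 0.909 and 0.923 in the WT libraries. In footprints the same ratio was 0.543 and 0.555 against 1.17 and 0.957, and again the groups did not overlap. How often the ratio of other gene pairs separates the groups was not tested, so this separation is a description only. The RNA test called 60.8% of all tested genes, with 33.1% higher and 27.7% lower there, and among the 5 tested members 1 rose, 1 fell and 3 did not pass. A share of 2 in 5 lies below that background. Without a test, 2 of the 5 members (Sdhb and Sdhc) lay higher in RNA in both KO-labelled libraries than in both WT libraries and 1 (Sdha) lay lower, as did 44.4% and 37.6% of the tested genes.

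Sdhc, the larger anchor subunit in the membrane, had footprints of 119 and 173 RPKM in the KO-labelled libraries, from 22 and 24 reads, against 373 and 340 RPKM in the WT libraries, from 166 and 113 reads. Both KO-labelled libraries lay below both WT libraries, and their exact 95% counting intervals of 74.7 to 180 and 111 to 257 RPKM did not reach the WT intervals of 318 to 434 and 280 to 408 RPKM. These intervals cover counting error within a library only, not the spread between libraries, so they do not test the groups. The log2 difference was -1.30 ± 0.30 (SE of 2 against 2 libraries, adjusted p = 0.149 by limma, unadjusted p = 0.00891). The 95% interval, which takes no account of the number of genes tested, ran from -2.10 to -0.51. RNA was 18.0 and 18.3 RPKM in the KO-labelled libraries, against 16.7 and 16.5 RPKM in the WT libraries, a log2 difference of 0.12 ± 0.07 (SE; adjusted p = 0.160 by limma) with an interval from -0.04 to 0.28. TE was 6.33 and 9.02 in the KO-labelled libraries, against 21.2 and 19.5 in the WT libraries, a log2 difference of -1.43 ± 0.35 (SE; adjusted p = 0.298 by limma, unadjusted p = 0.00952). In TE Sdhc stood at percentiles 97.2 and 97.1 of the tested genes in the WT libraries, and at 82.1 and 91.7 in the KO-labelled libraries. Its footprints were scaled to 507 nucleotides and its RNA to 3250, so the level of its TE also depends on these lengths.

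Sdhd, the small anchor, had footprints of 132 and 245 RPKM in the KO-labelled libraries, from 23 and 32 reads, against 473 and 636 RPKM in the WT libraries, from 198 and 199 reads. Both KO-labelled libraries again lay below both WT libraries. The log2 difference was -1.60 ± 0.40 (SE of 2 against 2 libraries, adjusted p = 0.164 by limma, unadjusted p = 0.0117), with an interval from -2.65 to -0.55. In the fit without KO replicate 2, which assumes that KO replicate 1 varies like the WT group, the footprint differences of Sdhc and Sdhd were -1.57 and -2.04. Over all 12 footprint alternatives the difference of Sdhc ranged from -1.57 to -1.04 and that of Sdhd from -2.04 to -1.16. Neither passed the adjusted threshold in any alternative that keeps all 4 libraries. The TE difference of Sdhc ranged from -1.68 to -1.17 over 11 alternatives, and it too passed in none that keeps all 4 libraries.

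RNA of Sdhd needs a limit beside it. As deposited, the footprint value over the TE gives RNA of 105 and 327 RPKM in KO replicates 1 and 2, against 164 and 167 RPKM in the WT libraries, so the KO-labelled values lie on either side of WT. The gap between the KO-labelled replicates, 1.63 on the log2 scale, was the widest of all 6389 tested genes, where the next widest was 1.00, and it ranked 40 among the 12194 genes chosen by RNA level. For 15987 of the 15988 genes with input RNA in at least 2 libraries, the implied RNA values were whole reads at some gene length. The exception was Sdhd, whose 2 WT values came out at 3870 and 3737 reads for a length of 1231 nucleotides, while its 2 KO-labelled values came out at 2389 and 6860 only after rounding, with fractions of 0.26 and 0.19 of a read left over. No other length gave whole reads either. Its footprints were whole in all 4 libraries. The cause was not tested, and the RNA and TE of Sdhd in the KO-labelled libraries are given as deposited, without support from the read steps.

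With that limit, the log2 RNA difference of Sdhd was 0.16 ± 0.43 (SE of 2 against 2 libraries, adjusted p = 0.762 by limma). It was 0.98 without KO replicate 1 (adjusted p = 0.000119 by limma) and -0.65 without KO replicate 2 (adjusted p = 0.000418 by limma), and over 14 alternatives the p ranged from 0.000119 to 0.830. TE of Sdhd was 1.25 and 0.749 in the KO-labelled libraries, against 2.86 and 3.79 in the WT libraries, a log2 difference of -1.76 ± 0.41 (SE; adjusted p = 0.292 by limma, unadjusted p = 0.00798). KO replicate 2 had the higher footprints and the lower TE of the 2 KO-labelled libraries, whereas for Sdha, Sdhb, Sdhc and Sdhaf2 it had the higher value in both.

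**Figure D1:**
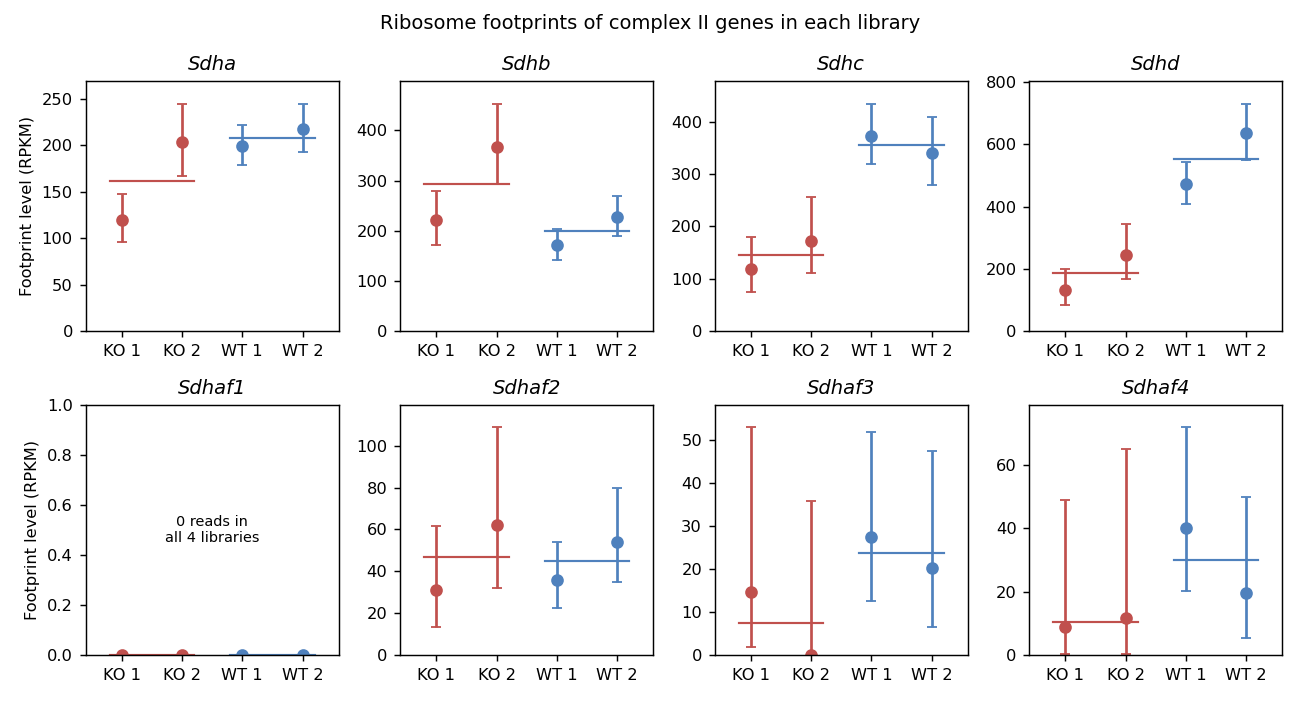
Footprint level in RPKM (vertical axes, each from 0) of the 8 complex II genes in KO replicates 1 and 2 (red) and WT replicates 1 and 2 (blue). Points are libraries with exact 95% Poisson intervals of their read numbers, lines are group means. Both KO-labelled points of Sdhc and Sdhd lie below both WT points, as they did for 32.1% of the tested genes. Those of Sdhaf3 and Sdhaf4, which were not tested, also lie below, on 0 to 2 reads in each KO-labelled library. Those of Sdha, Sdhb and Sdhaf2 overlap WT, and Sdhaf1 had 0 reads in all 4 libraries.

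In footprints 0 of the 5 tested members passed limma's adjusted threshold, which 1.06% of the tested genes did (68 of 6389). At an unadjusted p under 0.05, Sdhc and Sdhd were lower and 0 members higher, where 12.4% of the tested genes were lower and 5.84% higher. Of the 5, 2 lay lower in both KO-labelled libraries than in both WT libraries, and so did 32.1% of the tested genes. The median log2 difference of the 5 was -0.41, beside -0.13 over all tested genes. That median was -0.03 without KO replicate 1 and -0.79 without KO replicate 2. A value as low as that of Sdhc was found in 8.55% of the tested genes, and as low as that of Sdhd in 5.54%. In TE 0 of the 5 members and 0 of 6389 genes passed limma, Sdhc and Sdhd were lower at an unadjusted p under 0.05 as were 9.99% of genes, and both lay below WT without overlap, as did 32.3% of genes. The TE median of the members was -0.01, beside -0.15 over all tested genes, and it was 0.48 without KO replicate 1, -0.49 without KO replicate 2, -0.28 without WT replicate 1, 0.07 without WT replicate 2 and 0.13 with median centring.

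**Figure D2:**
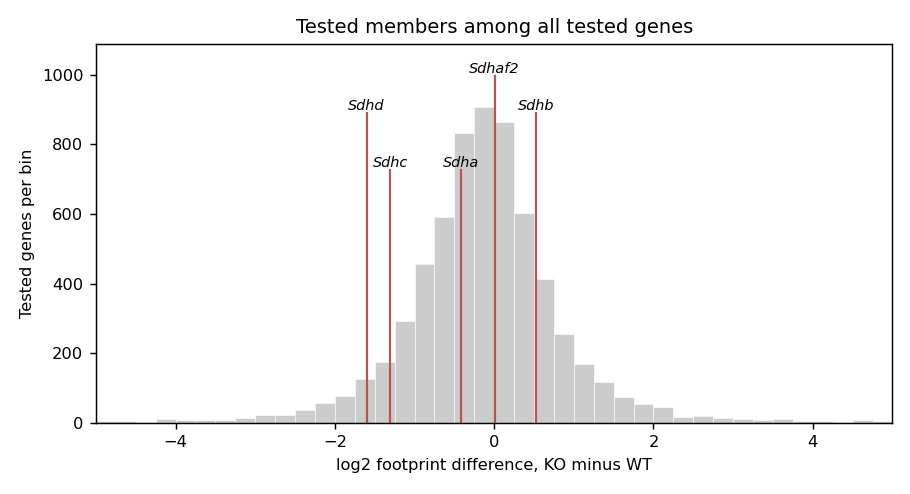
Number of tested genes (vertical axis) by log2 footprint difference, KO minus WT (horizontal axis, bins of 0.25), with red lines at the 5 tested complex II genes. Sdhd at -1.60 and Sdhc at -1.30 lie in the lower flank, and Sdha, Sdhaf2 and Sdhb lie in the body of the distribution.

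Read within each library, the 4 subunits kept a different proportion in each group. This comparison needs no scaling between libraries, and all 5 tested members were higher in KO replicate 2 than in KO replicate 1, by 1.44-fold to 1.96-fold on the RPKM + 1 scale. Of the summed footprint RPKM of the 4 subunits, Sdhb took 37.3% and 37.1% in the KO-labelled libraries, against 14.1% and 16.0% in the WT libraries. Sdhd took 22.4% and 24.8%, against 38.9% and 44.8%. Sdhc took 20.1% and 17.5% in the KO-labelled libraries, against 30.7% and 23.9% in the WT libraries, and Sdha took 20.3% and 20.6%, against 16.4% and 15.3%. Sdhb was thus the most heavily covered subunit per kilobase in both KO-labelled libraries and Sdhd in both WT libraries.

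The summed anchors Sdhc and Sdhd, divided by the summed Sdha and Sdhb, gave 0.738 and 0.733 in the KO-labelled libraries, against 2.28 and 2.20 in the WT libraries. The replicates of a group differed by far less than the groups. Each anchor rested on only 22 to 32 reads in the KO-labelled libraries, and no counting interval was made for this ratio. The closeness of 0.738 and 0.733 can therefore not be read as precision. How often other gene sets separate the groups in this way was not tested. The ratio of Sdhd to Sdhc overlapped, at 1.11 and 1.42 in the KO-labelled libraries, against 1.27 and 1.87 in the WT libraries. The sum of the 4 subunits was 592 and 987 RPKM in the KO-labelled libraries, against 1216 and 1420 RPKM in the WT libraries. These proportions are descriptions, since 2 libraries against 2 allow no exact permutation p under 0.05.

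**Figure D3:**
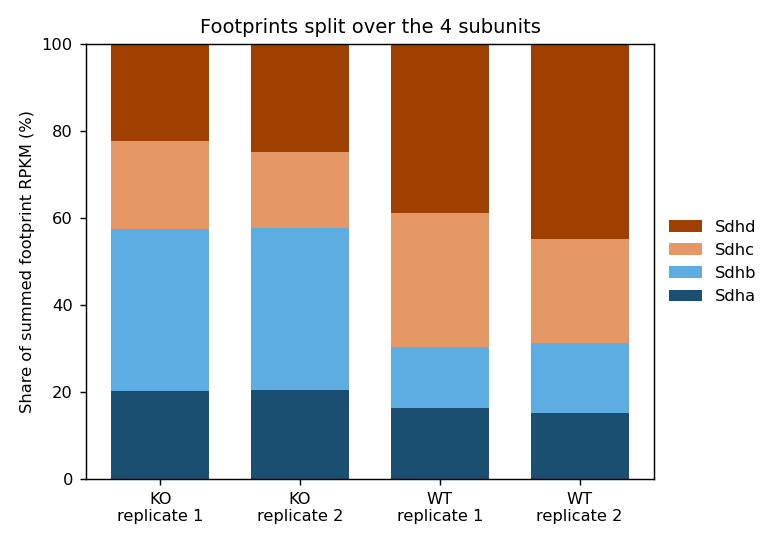
Share of the summed footprint RPKM of the 4 complex II subunits (vertical axis, percent) taken by each subunit in KO replicates 1 and 2 and WT replicates 1 and 2. The anchors Sdhc and Sdhd (orange and brown) fill less of each KO-labelled bar than of each WT bar, and Sdhb (light blue) fills 37.3% and 37.1% of the KO-labelled bars, against 14.1% and 16.0% of the WT bars.

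**Figure D4:**
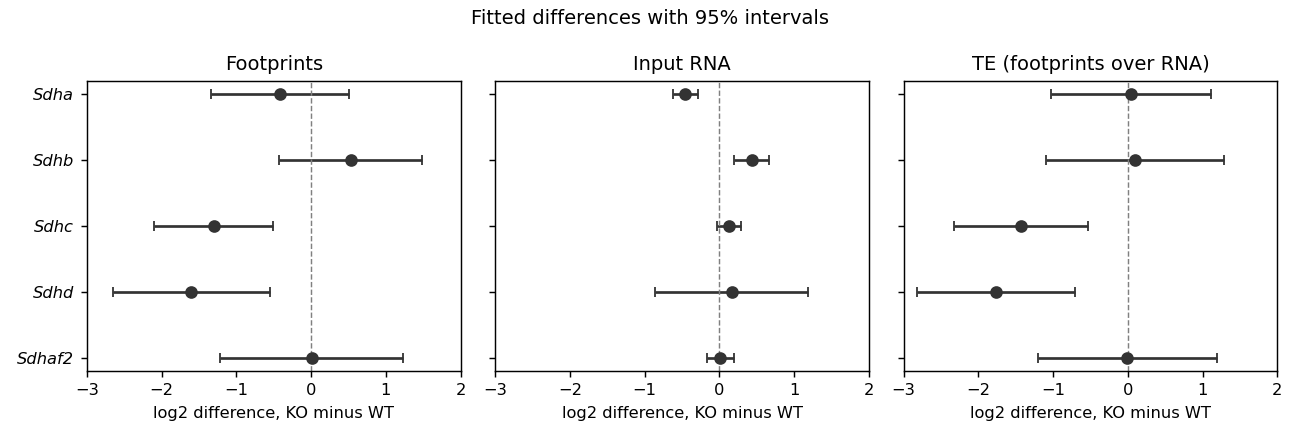
Fitted log2 difference, KO minus WT (horizontal axes), of the 5 tested complex II genes in footprints, input RNA and TE. Points are limma estimates and bars their 95% intervals, unadjusted for the number of genes. The intervals of Sdhc and Sdhd lie below 0 in footprints and TE, and in RNA that of Sdha lies below and that of Sdhb above 0, while RNA and TE of Sdhd rest on deposited values that were not whole reads.

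Of the assembly factors, Sdhaf2 alone had enough footprints to be tested. It is the flavinylation factor of SDHA, and its footprints were 31.3 and 62.3 RPKM in the KO-labelled libraries, from 8 and 12 reads, against 35.6 and 54.2 RPKM in the WT libraries, from 22 and 25 reads. The groups overlapped, and the log2 difference was 0.01 ± 0.47 (SE of 2 against 2 libraries, adjusted p = 0.997 by limma), with an interval from -1.21 to 1.23 that spans more than a 2-fold change in either direction. Its RNA was 8.55 and 8.61 RPKM in the KO-labelled libraries, against 8.39 and 8.62 RPKM in the WT libraries. The RNA interval was narrow, from -0.17 to 0.19 in log2 units (adjusted p = 0.907 by limma).

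Sdhaf4, which acts on flavinylated SDHA, had footprints of 8.80 and 11.7 RPKM in the KO-labelled libraries, against 40.2 and 19.5 RPKM in the WT libraries. These rested on 1 and 1 reads, against 11 and 4 reads. Scaled for depth, the pooled WT to KO ratio was 3.12 with an exact 95% interval from 0.726 to 28.1, so a difference was not detectable at this depth. RNA of Sdhaf4 was 20.7 and 21.4 RPKM in the KO-labelled libraries, against 21.3 and 19.9 RPKM in the WT libraries, and overlapped.

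Sdhaf3, of the iron-sulfur step, had footprints of 14.6 and 0 RPKM in the KO-labelled libraries, against 27.3 and 20.3 RPKM in the WT libraries, from 2 and 0 reads against 9 and 5 reads. The pooled WT to KO ratio of 2.91 had an exact 95% interval from 0.669 to 26.4. Its RNA was low throughout, at 2.72 and 2.07 RPKM in the KO-labelled libraries, against 1.98 and 1.92 RPKM in the WT libraries. At this depth no difference was detectable for either factor.

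Sdhaf1, the other factor of SDHB maturation, had 0 footprint reads in all 4 libraries. A count of 0 allows up to 3 reads, or 8.24 and 10.9 CPM (reads per 1000000 assigned reads) in the KO-labelled libraries, against 3.42 and 4.57 in the WT libraries. Its RNA was nevertheless covered, by 270 and 256 input reads in the KO-labelled libraries, against 187 and 183 in the WT libraries. RNA was 5.89 and 6.03 RPKM in the KO-labelled libraries, against 3.93 and 4.05 RPKM in the WT libraries, and the groups did not overlap. In a fit of RNA over the 12194 genes with at least 1 RPKM of RNA in at least 2 libraries, chosen after seeing the data, RNA of Sdhaf1 rose by a log2 difference of 0.48 ± 0.08 (SE of 2 against 2 libraries, adjusted p = 0.00739 by limma). That fit called 53.3% of its genes. RNA of Sdhaf3 and Sdhaf4 did not pass in it (log2 differences 0.20 and 0.03, adjusted p = 0.262 and 0.750 by limma).

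**Figure D5:**
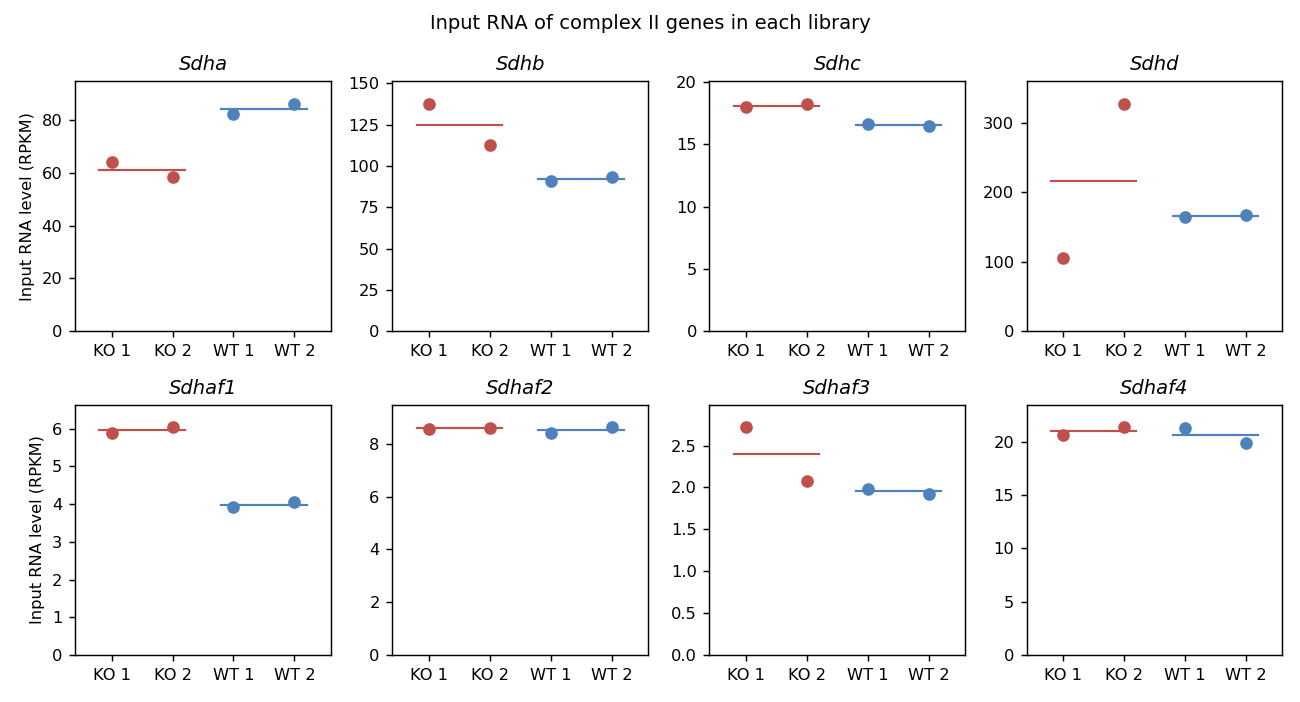
Input RNA level in RPKM (vertical axes, each from 0) of the 8 complex II genes in KO replicates 1 and 2 (red) and WT replicates 1 and 2 (blue), with lines at the group means. Sdha lies lower, and Sdhb, Sdhc, Sdhaf1 and Sdhaf3 lie higher, in both KO-labelled libraries than in both WT libraries. Of the tested genes, which leave out Sdhaf1 and Sdhaf3, 37.6% lay lower and 44.4% higher in this way. The KO-labelled points of Sdhd, at 105 and 327 RPKM, are the deposited values that did not come out as whole reads.

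The genes most like each subunit were found by the distance between their log2 footprint and log2 RNA values over the 4 libraries, with each set of 4 centred on its mean. For Sdha they were Arf2, Gorasp2 and Uap1l1, at distances of 0.13 to 0.14 on the log2 scale. For Sdhb they were Jmjd8, Saal1 and Parl, at 0.20 to 0.22. For Sdhc they were Mrps17, a subunit of the mitochondrial ribosome, Nudt7 and Arrdc1, at 0.16 to 0.19. Footprints of Mrps17 averaged 76.1 RPKM in the KO-labelled libraries and 175 RPKM in the WT libraries, and its RNA averaged 17.3 and 15.8 RPKM. For Sdhd the nearest were H2ac10, Sema6b and Sod1, at 0.94 to 1.06, farther than for any other subunit, and its distances include the RNA values limited above.

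Genes that feed complex II or share its cofactors were read from lists. Of 14 tested TCA cycle genes around succinate, 0 passed limma in footprints, where their median log2 difference was -0.35, and in RNA 1 rose and 5 fell, where 33.1% of all tested genes rose and 27.7% fell. RNA of Ogdh, a subunit of the oxoglutarate dehydrogenase that makes succinyl-CoA, was 38.5 ± 1.30 RPKM in the KO-labelled libraries against 53.8 ± 2.40 RPKM in the WT libraries (SD, n = 2 each), and fell by 0.47 in log2 units (adjusted p = 0.000885 by limma). The gene that rose was Idh3b, of isocitrate dehydrogenase (log2 RNA difference 0.40, adjusted p = 0.00173 by limma). Footprints of Idh2 and Idh3g differed by -1.01 and -0.81 (adjusted p = 0.408 and 0.253 by limma), and WT replicate 1 stood apart for Idh2, at 320.3 RPKM against 115 RPKM in WT replicate 2. All 14 were expressed well enough to be tested, in contrast to the assembly lists.

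Of 16 iron-sulfur assembly genes listed, 5 could be tested, and 0 passed limma in footprints or RNA, where 1.06% and 60.8% of all tested genes did. The footprint median of these 5 was -0.71, with Nfs1, the cysteine desulfurase, at -1.39 and Nfu1, a late-acting scaffold, at -1.30 (adjusted p = 0.390 and 0.219 by limma). Of 4 tested haem synthesis genes 0 passed in footprints (median 0.60), and in RNA 2 rose and 2 fell. Over all tested genes, 33.1% rose and 27.7% fell in RNA. RNA of Fech, which inserts the iron into haem, was 31.2 ± 0.219 RPKM in the KO-labelled libraries against 15.3 ± 0.0510 RPKM in the WT libraries (SD, n = 2 each) and rose by a log2 difference of 0.98 (adjusted p = 2.17e-05 by limma). Summed erythroid marker RNA was higher in the same libraries, as given above, and its part in this was not tested. RNA of Urod, an earlier enzyme, fell by 0.51 (adjusted p = 0.000836 by limma), and its footprint difference was 1.07 ± 1.64 (SE; adjusted p = 0.768 by limma). Footprints of Urod were 42.4 and 1375 RPKM in KO replicates 1 and 2, against 129 and 102 RPKM in the WT libraries, so KO replicate 2 alone lay above WT. The FAD supply list had 1 tested gene of 4, the riboflavin transporter Slc52a2, at 0.85 in footprints (adjusted p = 0.437 by limma).

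Of 5 tested ubiquinone synthesis genes 0 passed in footprints (median -0.10), and in RNA 1 rose and 3 fell. The RNA shares over all tested genes were 33.1% higher and 27.7% lower. RNA of Pdss1, which starts the isoprenoid tail, rose by 0.78 and that of Coq8b, an accessory kinase-like protein, fell by 0.65 in log2 units (adjusted p = 0.000358 and 0.000625 by limma). Coq3, a methyltransferase, had a footprint difference of -1.57 and Coq8b of -0.68 (adjusted p = 0.247 and 0.360 by limma). Of 6 other dehydrogenases that reduce ubiquinone, 0 passed in footprints (median -0.45), and in RNA 2 rose and 2 fell, beside the same shares. Sqor, which oxidises sulfide, had footprints of 14.9 ± 4.53 RPKM in the KO-labelled libraries against 78.9 ± 13.5 RPKM in the WT libraries (SD, n = 2 each; log2 difference -2.35, adjusted p = 0.0745 by limma), and its RNA fell by 1.50 (adjusted p = 5.40e-06 by limma). Chdh, choline dehydrogenase, had 71.3 ± 11.7 RPKM against 13.5 ± 3.43 RPKM (SD, n = 2 each; log2 difference 2.33, adjusted p = 0.0700 by limma), and its RNA rose by 1.15 (adjusted p = 7.33e-05 by limma).

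Of 4 tested modifiers of complex II 0 passed in footprints (median -0.23), and in RNA 2 rose and 1 fell. Among all tested genes 33.1% rose and 27.7% fell in RNA. RNA of Sirt3, the mitochondrial deacetylase known to act on SDHA, rose by a log2 difference of 1.02, and that of Trap1, a mitochondrial chaperone known to bind succinate dehydrogenase, fell by 0.48 (adjusted p = 4.13e-05 and 0.000641 by limma). Footprints of the proteases Clpp and Lonp1 differed by -0.53 and -0.36 (adjusted p = 0.622 and 0.729 by limma).

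The other respiratory complexes were set beside complex II as lists of nuclear-encoded subunits, with 0 members past limma in footprints in each. The footprint median was -0.86 for the 4 complex II subunits, -0.19 for 7 complex I core subunits, -0.38 for 9 complex III subunits and -0.90 for 7 complex IV subunits. The TE median was -0.69 for complex II, -0.47 for complex I, -1.13 for complex III and -1.21 for complex IV. Over all tested genes it was -0.15. At an unadjusted p under 0.05 by limma, 2, 2, 4 and 4 genes of these lists were lower in TE, beside 9.99% of all tested genes. Lower TE was thus not particular to complex II. In RNA 1 complex II subunit rose and 1 fell, while 4 rose and 1 fell in complex I, 4 rose and 1 fell in complex III, and 6 rose and 0 fell in complex IV, beside 33.1% of all tested genes that rose and 27.7% that fell. Cox7a2 of complex IV differed by -1.42 in footprints (adjusted p = 0.138 by limma) with RNA that rose by 0.53 (adjusted p = 0.000491 by limma). Cox6a1 differed by -1.17 in footprints (adjusted p = 0.554 by limma) with RNA that rose by 0.80 (adjusted p = 0.000132 by limma), and RNA of Cox8a rose by 0.57 (adjusted p = 0.000370 by limma). RNA of Ndufs8 and Ndufv2 of complex I rose by 0.76 and 0.47 (adjusted p = 8.25e-05 and 0.000661 by limma), with footprint differences of -1.46 and -1.08 (adjusted p = 0.393 and 0.247 by limma). In complex III, RNA of Uqcrq and Uqcr10 rose by 0.84 and 0.80 (adjusted p = 3.70e-05 and 8.40e-05 by limma), and footprints of Uqcrb and Cyc1 differed by -2.21 and -1.66 (adjusted p = 0.302 and 0.421 by limma). WT replicate 1 stood apart from WT replicate 2 in footprints of Ndufs8 (827 against 196 RPKM) and Cyc1 (460.3 against 74.9 RPKM). KO replicate 1 lay far below KO replicate 2 in footprints of Uqcrb (16.5 against 110 RPKM), Cox6a1 (57.2 against 347 RPKM) and Cox8a (111 against 493 RPKM). No test of a difference between the complexes was made.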

How the data were processed

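The authors deposited 1 table with ribosome-protected fragment and translational efficiency columns for each library and a p-value column, per the file headers. The tools named per the submitters' processing notes are HISAT2 2.1.0, featureCounts, DESeq2 and CASAVA. The build named there is hg38, which is human, for mouse samples. The role of each tool and the annotation are not given in the sources used here. The deposited footprint values behaved as RPKM plus 1, a unit read from the values. The deposited TE is the ratio of that value to the corresponding RNA value of the input, also plus 1, so RNA was taken as footprint value over TE, minus 1. The authors' deposited p-value column is described in the closing section only.

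The steps of the RPKM values gave back whole reads for each of 10536 genes with footprints in 2 or more libraries. In input RNA they did so for 15987 of 15988 genes. The first search allowed 0.002 reads, and acceptance used a wider limit. Libraries without reads fit any length, so the check is weak for genes found in only 2 libraries. The test took the 6389 genes with a footprint CPM (recovered reads per 1000000 assigned reads) of 20 or more in 2 or more libraries. limma 3.58.1 (R 4.3.3, trend) was fitted on log2(RPKM + 1) over all of them, with group as the only term and Benjamini-Hochberg adjustment (threshold 0.05, two-sided); this scale understates changes of low genes. Counting intervals are exact Poisson intervals at 95% and cover counting error only. The design text calls the replicates biological without naming animals, and a p-value here measures only how far these libraries spread. The recovery and the fit were tested on simulated data. Python 3.11.15 was used for the rest. RefSeq promoters on GRCm38.p6 matched 7 of the 8 members; Sdhc had no entry.

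Genes named are Rreb1, the 8 members, from each list those past the adjusted threshold in footprints or TE or else the 2 with the largest footprint difference, the 2 with the largest RNA difference among those past the threshold in RNA, and the 3 genes nearest each subunit. Members, lists, tests and alternatives were chosen with earlier results of these data known. Same-numbered libraries of the 2 groups did not deviate together (r = 0.02 in footprints, -0.34 in RNA and 0.01 in TE), and the labels name no shared animal or day.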

Additional observations from a re-analysis of the deposited data

How the results depend on the processing

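Of 222 fits of a single gene (5 members and Rreb1) under an alternative, 205 kept their direction and their side of the threshold. Leaving out 1 library moved most: 0 to 2 members passed in footprints, 1 to 3 in RNA and 0 to 1 in TE, and the member median in RNA ranged from 0.00654 to 0.13 (limma, with a lone library taken to vary as much as the other group). In these fits Sdhaf2 ranged from -0.48 to 0.49 in footprints, from -0.00538 to 0.0284 in RNA and from -0.49 to 0.48 in TE, RNA of Sdhd from -0.65 to 0.98, and TE of Sdha and Sdhb from -0.40 to 0.49 and from -0.41 to 0.61. Besides, the difference of Sdhaf2 turned to -0.0290 in RNA under limma-voom, and in TE to 0.00174 with a pseudocount of 5 and to 0.13 with median centring. Apart from RNA of Sdhd, these sign changes concern differences that were near 0 with all libraries in the main setting. The changed values were not all near 0, as TE of Sdhb at -0.41 and footprints of Sdhaf2 at -0.48 show, both without KO replicate 2. With the replicate block, 0 members passed in footprints, 2 in RNA and 0 in TE, as without it, and Sdha and Sdhb were the RNA calls (limma adjusted p = 0.00433 and 0.0103); the numbers pair no known source. The RNA deviations were of opposite sign (r = -0.34), and with the pairing crossed 4395 genes and 2 members passed in RNA, against 3882 and 2. Over all genes the footprint count of 68 became 32 with the replicate block, 6 with a CPM minimum of 5, 0 with no filter (1667 at an unadjusted p under 0.05), 110 with a pseudocount of 5, 0 without either WT replicate (395 and 420 at an unadjusted p under 0.05), 336 without KO replicate 1 and 1097 without KO replicate 2; the TE count of 0 became 1 with a pseudocount of 5, 149 without KO replicate 1 and 699 without KO replicate 2. The shallow KO-labelled footprint libraries, with 22 to 32 reads for each anchor subunit and 0 to 2 for 3 of the assembly factors, limit every footprint and TE value, and RNA and TE of Sdhd in those libraries rest on values that are not whole reads.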

Other observations

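The authors' deposited table gives a p-value per gene that is headed as adjusted. For each of the 8 members it equals the unadjusted p of a one-sided test on the TE values themselves, with equal variances assumed, to within 4.98e-10. By the authors' deposited table, a p under 0.05 was given to 3 of the 8 members (37.5%), beside 3432 of all 16442 genes (20.9%). The p in the authors' deposited table is 0.00769 for Sdhc, 0.0238 for Sdhd and 0.00125 for Sdhaf1. The value for Sdhaf1 in the authors' deposited table rests on TE of 0.145 and 0.142 in the KO-labelled libraries, against 0.203 and 0.198 in the WT libraries. As Sdhaf1 had 0 footprint reads in all 4 libraries, these TE values are 1 over its RNA value plus 1, so they hold its RNA and no footprints. The value for Sdhd in the authors' deposited table uses the KO-labelled TE that did not come from whole input reads.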
